A study of Mus musculus with 45 samples.

Results

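The circadian clock genes described here are Arntl, Clock, Per1, Per2, Per3, Cry1, Cry2, Nr1d1, Nr1d2 and Dbp, which were chosen by name as the core transcription loop of the clock and its best known output gene. All 10 were present among the 15897 genes of the hippocampal RNA sequencing of 45 female mice, and none had been removed by a filter on low counts. Another 23 genes of the clock, also chosen by name, were measured and are described after them.

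The mice were on the C57Bl/6J background and fell into 8 groups of genotype by diet. AwTw mice carried no transgene. A+Tw mice carried the APPswe/PS1dE9 transgene, in which the mouse prion protein promoter drives a mutant APP made of mouse and human sequence together with mutant human PS1 (presenilin), AwT+ mice carried human Tau P301L under the CaMKII promoter, and A+T+ mice, obtained by crossing heterozygous animals of both lines, carried both. The standard diet (STD, with 5% fat by weight and 0% cholesterol) was continued, or replaced by a typical western diet (TWD, with 35% sucrose, 21% fat by weight and cholesterol at 0.15%), from the age of 7 months until sacrifice at 13 months. There were 4 A+T+, 5 A+Tw, 6 AwT+ and 6 AwTw mice on STD and 6 of each genotype on TWD, each mouse a separate animal. All mice lived with lights on from 7 to 19 h. The hour of sacrifice of a mouse is not given in the sources used here, so each value is 1 point of a daily cycle at an hour that is not known.

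In most cells a molecular clock runs through a feedback loop of transcription. ARNTL (also called BMAL1) and CLOCK form a dimer that binds E-box sequences and activates Per, Cry, Nr1d and Dbp genes, PER and CRY proteins then repress that dimer, and NR1D1 and NR1D2 (REV-ERB alpha and beta) repress Arntl through RORE sequences. DBP is an activator that binds D-box sequences and drives a large output programme, and in tissues sampled around the day Arntl peaks at the phase opposite to that of Dbp, Nr1d1 and the Per genes. The hippocampus holds such a clock, which follows the central clock of the suprachiasmatic nucleus.

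In GRCm38 coordinates Arntl lies at chr7:113207465-113314126 on the plus strand, Clock at chr5:76209868-76304792 on the minus strand, Per1 at chr11:69095217-69109960 on the plus strand, Per2 at chr1:91415982-91459324 on the minus strand and Per3 at chr4:151003652-151044665 on the minus strand. Cry1 lies at chr10:85131700-85185064 on the minus strand, Cry2 at chr2:92403646-92434043 on the minus strand, Nr1d1 at chr11:98767932-98775333 on the minus strand, Nr1d2 at chr14:18204054-18239127 on the minus strand and Dbp at chr7:45705088-45710203 on the plus strand. Arntl and Dbp share chromosome 7, and Per1 and Nr1d1 share chromosome 11, each pair far apart.

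The 250 bases before a RefSeq start are shown for Per3, the member with matches to the D-box that DBP binds, and for Per1 and Cry1, the members with matches to the E-box that CLOCK and ARNTL bind (GRCm38.p6, 5′ to 3′ on the strand of the gene). Per3 is shown with its D-boxes in capitals (TTATGTAA), Per1 and Cry1 with the E-box in capitals (CACGTG). The Per3 window is chr4:151044666-151044915 on the minus strand. The Per1 window is chr11:69098699-69098948 on the plus strand, before a start that lies inside the annotated span of the gene. The Cry1 window is chr10:85185055-85185304 on the minus strand.
Per3: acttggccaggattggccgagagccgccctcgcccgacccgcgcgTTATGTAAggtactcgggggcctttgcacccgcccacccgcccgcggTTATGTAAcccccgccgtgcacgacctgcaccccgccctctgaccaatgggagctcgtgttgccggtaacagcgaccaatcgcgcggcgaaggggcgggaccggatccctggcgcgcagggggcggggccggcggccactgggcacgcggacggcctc
Per1: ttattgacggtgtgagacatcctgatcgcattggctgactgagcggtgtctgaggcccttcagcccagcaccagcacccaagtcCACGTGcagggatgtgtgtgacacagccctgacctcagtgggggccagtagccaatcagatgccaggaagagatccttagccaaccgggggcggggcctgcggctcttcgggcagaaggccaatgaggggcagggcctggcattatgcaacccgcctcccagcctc
Cry1: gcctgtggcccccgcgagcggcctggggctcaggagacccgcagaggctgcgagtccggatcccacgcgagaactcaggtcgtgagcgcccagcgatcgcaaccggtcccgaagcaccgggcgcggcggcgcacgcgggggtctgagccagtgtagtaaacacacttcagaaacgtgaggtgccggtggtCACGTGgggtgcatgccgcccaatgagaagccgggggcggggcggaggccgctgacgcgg
Both strands were searched for 5 motifs in these 250 bases over 32851 RefSeq start windows of the mouse. The D-box (TTATGTAA or TTACGTAA) was found in 0.931% of windows and, among the members, in Per3 only, where it occurred 205 and 158 bases before the start. The E-box CACGTG was found in 6.02% of windows, and in those of Per1 (166 bases before the start) and Cry1 (60 bases). Its variant CACGTT was found in 3.85% of windows, and in those of Cry1 (79 bases), Cry2 (166 bases) and Nr1d1 (28 bases), with no base shared with the E-box. The RORE letters TAGGTCA or TGGGTCA occurred in 5.38% and the CRE TGACGTCA in 1.55% of windows, and neither occurred in those of the members. Per2 had no window in the table used, and matches are letters only, not sites shown to be bound.

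The deposited values are log2-like, from a variance-stabilizing transformation with batch removed, and carry no depth. Differences are therefore given on that scale and, apart from percentiles of marker genes, levels are not compared between genes. The libraries came from 2 batches of 20 and 25 mice. All 7 hippocampal neuron markers were measured, from percentile 77.9 (Prox1) to 99.8 (Snap25) of the mean levels of all genes. The choroid plexus markers ranged from a summed level of 9.25 to 18.1 between mice. A single component held 41.3% of the variance left between mice after group and batch, and its gene loadings followed the GC content of transcripts (Spearman 0.737 over genes, which are not independent). The score of each mouse on it averaged -13.4 ± 25.1 (SD, n = 21) on STD and 11.7 ± 28.8 (SD, n = 24) on TWD, so tests are also given with this score of shared variation as a covariate. The highest score, 71.7, belonged to 1 A+T+/TWD mouse, which also had the lowest Clock level of all mice.

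The members differed in how much they varied between mice of one group and batch. Clock, with a residual SD of 0.688 (percentile 97.0 of all genes), Cry1 with 0.627 (percentile 95.8) and Nr1d2 with 0.489 (percentile 90.1) were among the most variable genes of the table. Dbp (0.369), Per3 (0.334), Per1 (0.278), Nr1d1 (0.252) and Per2 (0.222) lay nearer to the median of all genes, 0.263. The least variable were Arntl with 0.176 (percentile 13.2) and Cry2 with 0.175 (percentile 12.6). The spread was not the same in both batches, since that of Clock was 0.333 in batch 0 and 0.845 in batch 1, and that of Per3 0.431 and 0.214.

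Part of this spread followed the score of shared variation. Over the residuals of the 45 mice, Clock correlated with it at -0.97 and Nr1d2 at -0.86, Dbp at 0.78, Per1 at 0.64 and Nr1d1 at 0.52. Only 0.711% of genes had a larger absolute correlation with the score than Clock, whose transcript of 9744 bases is longer than that of 97.1% of genes and has a GC content of 40.9%. Cry1 (0.01), Per2 (-0.12), Per3 (-0.14), Cry2 (0.21) and Arntl (-0.36) followed it less. Cry2 and Nr1d1 also correlated with the next component, at 0.86 and 0.63.

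**Figure D1:**
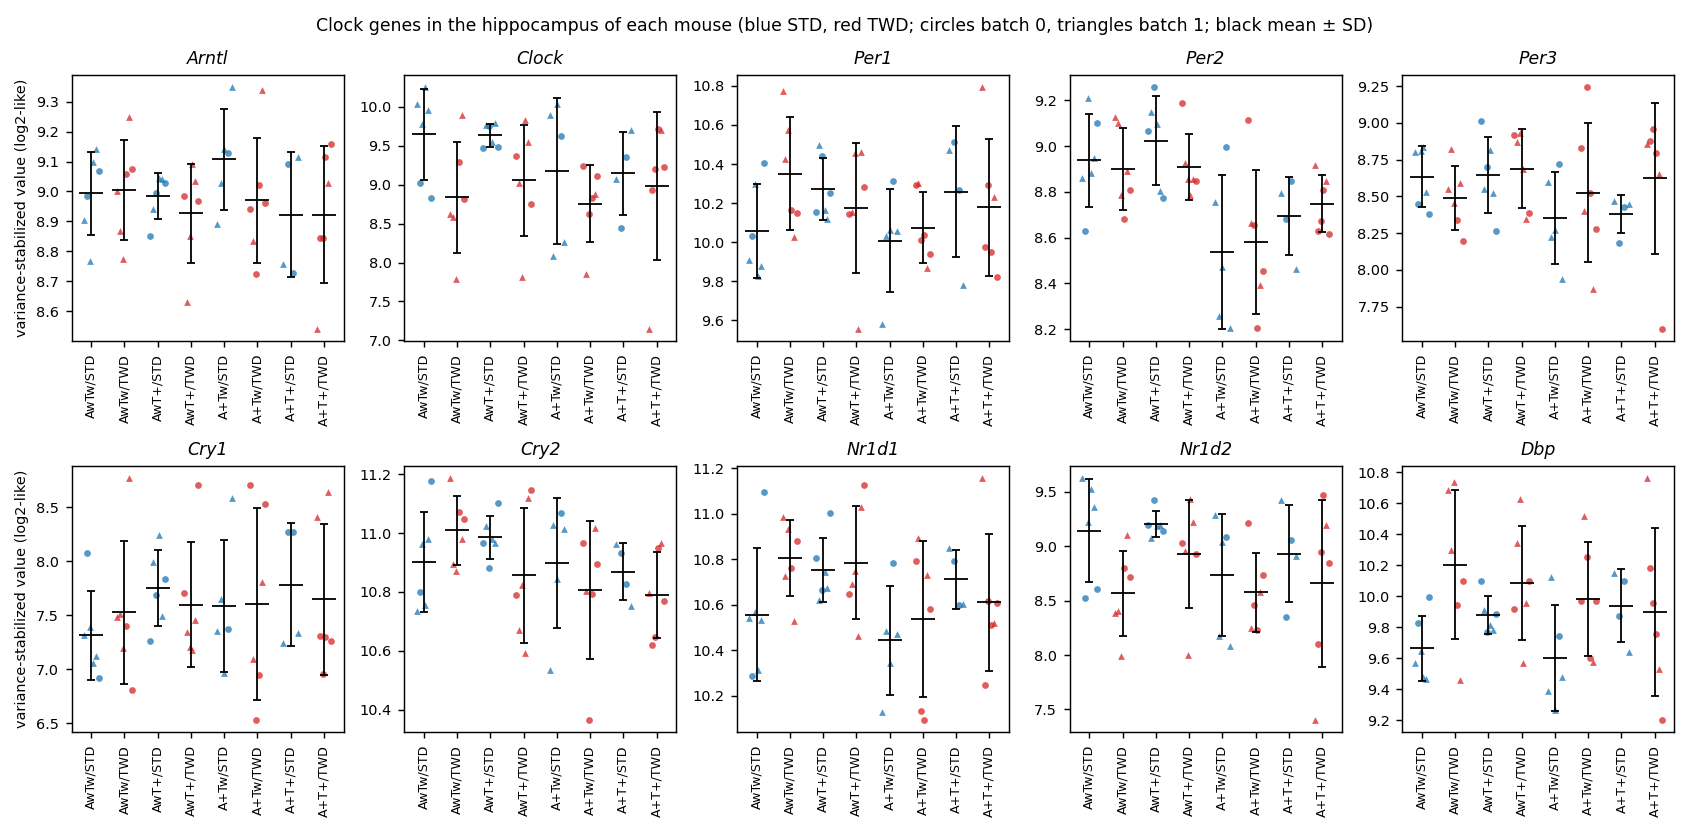
Values of the 10 clock genes (deposited log2-like scale, vertical axes) in each of the 45 mice, by genotype and diet group (horizontal axes), with circles for batch 0 and triangles for batch 1, blue for STD and red for TWD, and black bars for mean ± SD. The 4 A+ groups have lower Per2 means than the 4 Aw groups, with overlapping ranges, and the ranges of the other genes overlap as well.

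Across the 8 groups the lowest and the highest mean of a gene lay farther apart than its median SD within groups for 9 of the 10 genes, Cry1 being the exception, whereas the steps between neighbouring groups were smaller. Means of 4 to 6 mice differ by sampling alone, and neither measure was taken over all genes. These distances therefore describe the values and do not show a difference between groups. Per2, a repressor of the loop, ran from 8.54 ± 0.336 (SD, n = 5) in A+Tw/STD to 9.02 ± 0.195 (n = 6) in AwT+/STD, a distance of 0.487 against a median within-group SD of 0.187. Dbp ran from 9.60 ± 0.342 (n = 5) in A+Tw/STD to 10.20 ± 0.481 (n = 6) in AwTw/TWD. Clock ran from 8.76 ± 0.496 (n = 6) in A+Tw/TWD to 9.65 ± 0.583 (n = 6) in AwTw/STD, and its partner Arntl only from 8.92 ± 0.229 (n = 6) in A+T+/TWD to 9.11 ± 0.168 (n = 5) in A+Tw/STD.

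For Cry1, a repressor, the distance between its lowest and highest group (AwTw/STD, 7.31 ± 0.410, n = 6, and A+T+/STD, 7.78 ± 0.568, n = 4) was 0.468 and smaller than its median within-group SD of 0.593. Nr1d2 ran from 8.57 ± 0.387 (n = 6) in AwTw/TWD to 9.20 ± 0.118 (n = 6) in AwT+/STD, and Nr1d1 from 10.44 ± 0.238 (n = 5) in A+Tw/STD to 10.80 ± 0.167 (n = 6) in AwTw/TWD. A+Tw/STD was the lowest group for Per1, Per2, Per3, Nr1d1 and Dbp and the highest for Arntl, although only 1 of its 5 mice was in batch 0. For each of the 10 genes every step between neighbouring groups in the order of means was smaller than the median SD within groups. The largest such step was 0.455, for Clock between A+Tw/STD and AwT+/STD, against an SD of 0.649.

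The first comparison asked whether the APP/PS1 transgene went with other levels of clock transcripts. Per2 was lower in A+ than in Aw mice, and no other member passed the test (limma, adjusted over all genes), where 3.78% of all genes were called, 3.10% higher and 0.679% lower. Per2 in the 24 Aw mice had a lowest value of 8.63, a median of 8.89 and a highest of 9.26. In the 21 A+ mice these were 8.20, 8.66 and 9.12. The ranges overlapped, with 18 of the 21 A+ mice under the median of the Aw mice and 8 under the lowest Aw mouse. The means were 8.64 ± 0.252 (SD, n = 21) and 8.94 ± 0.177 (SD, n = 24), and Per2 fell by 0.30 ± 0.066 (SE) on the log2 scale, 0.810 times the Aw level (adjusted p = 0.00173).

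The lower Per2 was seen with and without the tau transgene and on both diets, in medians. In Aw mice the group medians of Per2 were 8.92 (AwTw/STD), 8.85 (AwTw/TWD), 9.08 (AwT+/STD) and 8.86 (AwT+/TWD). In A+ mice they were 8.74 (A+T+/TWD), 8.74 (A+T+/STD), 8.56 (A+Tw/TWD) and 8.47 (A+Tw/STD), so each A+ group had a lower median than each Aw group. Single groups of 4 to 6 mice did not pass the test: the largest of the 4 contrasts with AwTw, A+Tw on STD, was -0.40 ± 0.135 (SE, adjusted p = 0.330). Within batch 0 the difference between A+ and Aw was -0.19 (adjusted p = 0.501) and within batch 1 -0.37 (adjusted p = 0.0134). It passed the test with any single mouse left out (adjusted p from 2.97e-04 to 0.00450) and with the score of shared variation (-0.29, adjusted p = 0.00192).

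Among the other members 7 of 9 had a negative difference, and the median over all 10 was -0.12 against -0.02 over all genes. Nr1d1 ranged from 10.29 to 11.13 with a median of 10.71 in Aw and from 10.09 to 11.16 with a median of 10.60 in A+ mice. Its ranges overlapped widely, and the difference of -0.16 ± 0.074 (SE) did not pass the test (adjusted p = 0.297). Dbp ranged from 9.46 to 10.73 with a median of 9.92 in Aw and from 9.20 to 10.76 with a median of 9.87 in A+ mice, with a difference of -0.11 ± 0.108 (SE, adjusted p = 0.620).

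With the score of shared variation in the fit, Nr1d1 (-0.21 ± 0.063 SE, adjusted p = 0.0294) and Dbp (-0.23 ± 0.068 SE, adjusted p = 0.0306) passed beside Per2, so 3 members were lower while 6.92% of all genes were called and 3.13% were called lower. The count was also 3 with trends over the length and GC content of transcripts removed from each mouse (6.08% of genes called), and it was 2, Per2 and Dbp, with a second component in the fit (6.42%). Within batches their differences without the score were -0.26 and -0.02 for Nr1d1 and -0.09 and -0.04 for Dbp, in batch 0 and batch 1. The remaining differences were -0.27 for Clock (adjusted p = 0.506), -0.24 for Nr1d2 (adjusted p = 0.414), -0.13 for Per3 (adjusted p = 0.509), -0.10 for Cry2 (adjusted p = 0.351) and -0.09 for Per1 (adjusted p = 0.599). Cry1 was at +0.11 (adjusted p = 0.791) and Arntl at 0.00 (adjusted p = 0.986).

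Cell type markers for the same transgene are given beside the 3.78% of all genes called, 3.10% higher and 0.679% lower. The summed level of the 5 microglia markers was 12.16 to 12.86 in A+ and 11.72 to 12.13 in Aw mice, without overlap, and 3 of the 5 were called higher. Absence of overlap was not counted over all genes. The differences of the 6 choroid plexus markers were all positive, with a median of 0.86, and their summed level was 15.2 ± 2.19 (SD, n = 21) in A+ and 13.3 ± 3.07 (SD, n = 24) in Aw mice, with 0 called by limma and 4 at an unadjusted p under 0.05. The summed level of the 5 astrocyte markers was 14.31 to 15.27 in A+ and 13.88 to 14.41 in Aw mice, and 1 of the 5 was called higher. Of their differences 2 were positive and 3 negative, with a median of -0.003, so the list as a whole did not rise. The summed level of the 7 hippocampal neuron markers was 14.88 to 15.40 in A+ and 15.14 to 15.53 in Aw mice. All 7 differences were negative, with a median of -0.11, with 0 called by limma and 2 at an unadjusted p under 0.05. The part of these cell types in the Per2 difference was not tested, and in bulk tissue fewer cells of a type and less RNA per cell cannot be told apart. Over the residuals within groups Per2 had an absolute correlation of at most 0.27 with the marker sums of any cell type, the largest being -0.27 with those of the choroid plexus. The difference between A+ and Aw mice is removed from these residuals, so they cannot show what part cell types had in it.

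**Figure D2:**
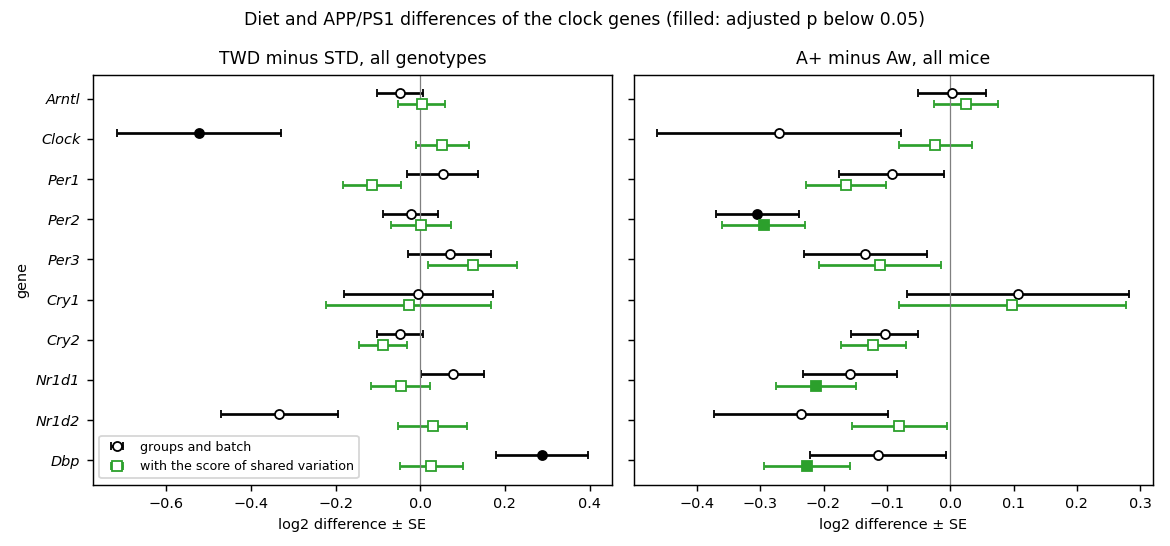
Log2 differences ± SE of the 10 clock genes over all 45 mice for diet (TWD minus STD, left) and the APP/PS1 transgene (A+ minus Aw, right), without (black circles) and with (green squares) the score of shared variation in the fit, filled where the adjusted p is below 0.05. Per2 is filled both ways on the right (-0.30 and -0.29), whereas Clock (-0.52) and Dbp (0.29) on the left move to 0.051 and 0.026 with the score.

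The second comparison asked what the western diet did to the members over all genotypes. Clock was lower and Dbp higher on TWD, 2 of 10 members in a comparison in which 29.4% of all genes were called. Clock, the activator, ranged from 8.08 to 10.26 with a median of 9.63 on STD and from 7.15 to 9.90 with a median of 8.98 on TWD. The ranges overlapped, with 20 of the 24 TWD mice under the STD median. Clock fell by 0.52 ± 0.194 (SE) on the log2 scale, from 9.44 ± 0.606 (SD, n = 21) to 8.91 ± 0.699 (SD, n = 24), or 0.696 times (adjusted p = 0.0393).

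Dbp ranged from 9.27 to 10.15 with a median of 9.78 on STD and from 9.20 to 10.76 with a median of 9.97 on TWD. Here 9 of the 24 TWD mice lay above every STD mouse and 17 above the STD median. Dbp rose by 0.29 ± 0.108 (SE) on the log2 scale, from 9.76 ± 0.257 (SD, n = 21) to 10.04 ± 0.432 (SD, n = 24), or 1.22 times (adjusted p = 0.0418). Nr1d2, a repressor of Arntl, had medians of 9.14 on STD and 8.77 on TWD and a difference of -0.33 ± 0.138 (SE, adjusted p = 0.0621). The other 7 members had adjusted p values from 0.432 to 0.988.

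Calls of cell type markers for diet are given beside the 29.4% of all genes called in that comparison. Of the 5 oligodendrocyte markers 2 were called higher, of the 5 astrocyte markers 1 was called higher and 2 lower, of the 5 microglia and of the 5 endothelial markers 1 was called higher and 1 lower each, and the 6 choroid plexus markers were all negative with a median of -0.49 and 0 called (1 at an unadjusted p under 0.05). None of the neuron markers was called in limma (1 at an unadjusted p under 0.05). The summed oligodendrocyte level was 15.97 to 16.54 on STD and 15.88 to 16.86 on TWD, and its part in the Clock and Dbp differences was not tested.

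Both diet differences were smaller in batch 0 than in batch 1, and smaller with the score of shared variation in the fit. Whether the diet difference itself differs between batches was not tested. In batch 0 alone Clock was at -0.12 (adjusted p = 0.873) and Dbp at 0.02 (adjusted p = 0.970), and in batch 1 alone at -0.92 (adjusted p = 0.0228) and 0.48 (adjusted p = 0.0287). With the score of shared variation in the fit Clock was at 0.051 (adjusted p = 0.817) and Dbp at 0.026 (adjusted p = 0.933), and limma then called 0 of all genes, with 1281 at an unadjusted p under 0.05. The score itself differed between the diets, so an effect of diet that runs along it and the shared variation cannot be told apart. With the trend over transcript length and GC content removed, 14.5% of genes were called and no member, Clock being at -0.22 (adjusted p = 0.145) and Dbp at 0.041 (adjusted p = 0.714). With 1 mouse left out Clock passed in 28 and Dbp in 27 of 45 cases, and the highest adjusted p values were 0.0763 (Clock, without AwT+/TWD replicate 3) and 0.0796 (Dbp, without AwTw/TWD replicate 3).

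By genotype, limma called 0 members for diet in AwTw mice, where 9.35% of all genes were called and 3 members had an unadjusted p under 0.05. These were Dbp at +0.54 (adjusted p = 0.0608), Clock at -0.81 (adjusted p = 0.105) and Nr1d2 at -0.58 (adjusted p = 0.108). In AwTw mice Dbp ranged from 9.46 to 10.00 on STD and from 9.46 to 10.73 on TWD, so that the ranges overlapped. Without AwTw/STD replicate 6 limma called 3 members in this comparison, without AwTw/TWD replicate 5 it called 2, and without A+T+/TWD replicate 1, AwTw/STD replicate 2 or AwTw/TWD replicate 4 it called 1. In the 3 transgenic genotypes limma called 0 of all genes for diet, with 1183 (AwT+), 705 (A+Tw) and 409 (A+T+) at an unadjusted p under 0.05, and no member was among these.

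Over the 13 comparisons between single groups, interactions included, 0 of 130 member tests passed in limma and 7 had an unadjusted p under 0.05. The genotype contrasts with AwTw called 1.32% (A+T+) and 0.925% (A+Tw) of genes on STD and 0.730% and 0.824% on TWD, and 0% for AwT+ on either diet. The interactions of genotype and diet called 0 genes in limma, with 639 (AwT+), 352 (A+Tw) and 1001 (A+T+) at an unadjusted p under 0.05. The lowest p of a member was that of Dbp in A+T+ (-0.58 ± 0.309 SE, unadjusted p = 0.0697).

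No member passed the test for the tau transgene. Over the 22 T+ and 23 Tw mice the differences lay between -0.08 (Arntl) and 0.19 (Cry1), 8 of 10 were positive, and the lowest adjusted p was 0.999. Limma called 0 members, 0 had an unadjusted p under 0.05, and 0.0126% of all genes were called. The names of 29 mice began with AM and those of 16 with PM, letters whose meaning the labels do not give. With the prefix as a term limma called 0 of all genes and 0 members (567 genes and 0 members at an unadjusted p under 0.05), and the member differences lay between -0.12 (Nr1d2) and 0.27 (Cry1, ± 0.193 SE).

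Of the 23 further clock genes, which comprise other activators, repressors, D-box binding factors, kinases and ubiquitin ligases of clock proteins, 1 was called for the APP/PS1 transgene, for which 3.78% of all genes were called. Hlf, which like Dbp binds D-boxes, was lower at 10.49 ± 0.298 (SD, n = 21) in A+ than at 10.87 ± 0.274 (SD, n = 24) in Aw mice, and fell by 0.38 ± 0.083 (SE) on the log2 scale (adjusted p = 0.00193). Of the 23, 19 had a negative difference, with a median of -0.10. With the score of shared variation Hlf (-0.32, adjusted p = 0.00167), Ciart (-0.29, adjusted p = 0.0144) and Bhlhe40 (-0.20, adjusted p = 0.0175), of which the latter pair encode repressors of the CLOCK and ARNTL dimer, were called lower and none higher, while 6.92% of all genes were called and 3.13% were called lower.

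For diet 6 of the 23 were called lower and 0 higher, against 13.4% of all genes called lower and 16.0% higher. Among them were the kinase Gsk3b (-0.45 ± 0.126 SE, adjusted p = 0.0159), the ubiquitin ligase subunit Fbxl21 (-0.28 ± 0.079, adjusted p = 0.0166), Fbxw11 (-0.20 ± 0.064, adjusted p = 0.0217), which acts on PER, the repressor Bhlhe41 (-0.38 ± 0.122, adjusted p = 0.0238) and the activator Rora (-0.47 ± 0.166, adjusted p = 0.0312). With the score of shared variation 0 of the 23 were called. The tau transgene and the name prefix called 0 of them.

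Lists of genes that follow other inputs to clock genes are given beside the shares of all genes called, 29.4% for diet and 3.78% for the APP/PS1 transgene. Of 10 glucocorticoid responsive genes 2 were higher and 1 lower on TWD, and 0 were called for the APP/PS1 transgene. Of 10 immediate early genes, which follow neuronal activity, 2 were called higher on TWD, where all 10 differences were positive with a median of 0.15, and 2 were called lower in A+ mice, where all 10 were negative with a median of -0.22. Of 5 temperature responsive genes 1 was higher on TWD and 0 were called in A+ mice.

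The correlations between members across mice used the residuals after the 8 groups and batch, over 45 mice and 45 pairs. Of these 26 were positive and 19 negative, with a median absolute r of 0.282 and 10 pairs above 0.5. A pair was called when each gene of it passed, adjusted over all other genes, in the limma fit with the other gene as a term. By that rule 13 of 45 pairs were called, 6 with the score of shared variation as a further term, and 3 in both cases, which were Arntl with Dbp, Arntl with Per3 and Cry2 with Nr1d1. The median absolute r of a member with all other genes ran from 0.126 (Cry1) to 0.526 (Clock). With 1 member as a term, 0% (Cry1) to 67.4% (Clock) of all other genes were called, and with the score 0% (Cry1) to 41.5% (Cry2). The share called in both directions was not computed over all gene pairs, so these counts do not set the members apart from other genes.

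**Figure D3:**
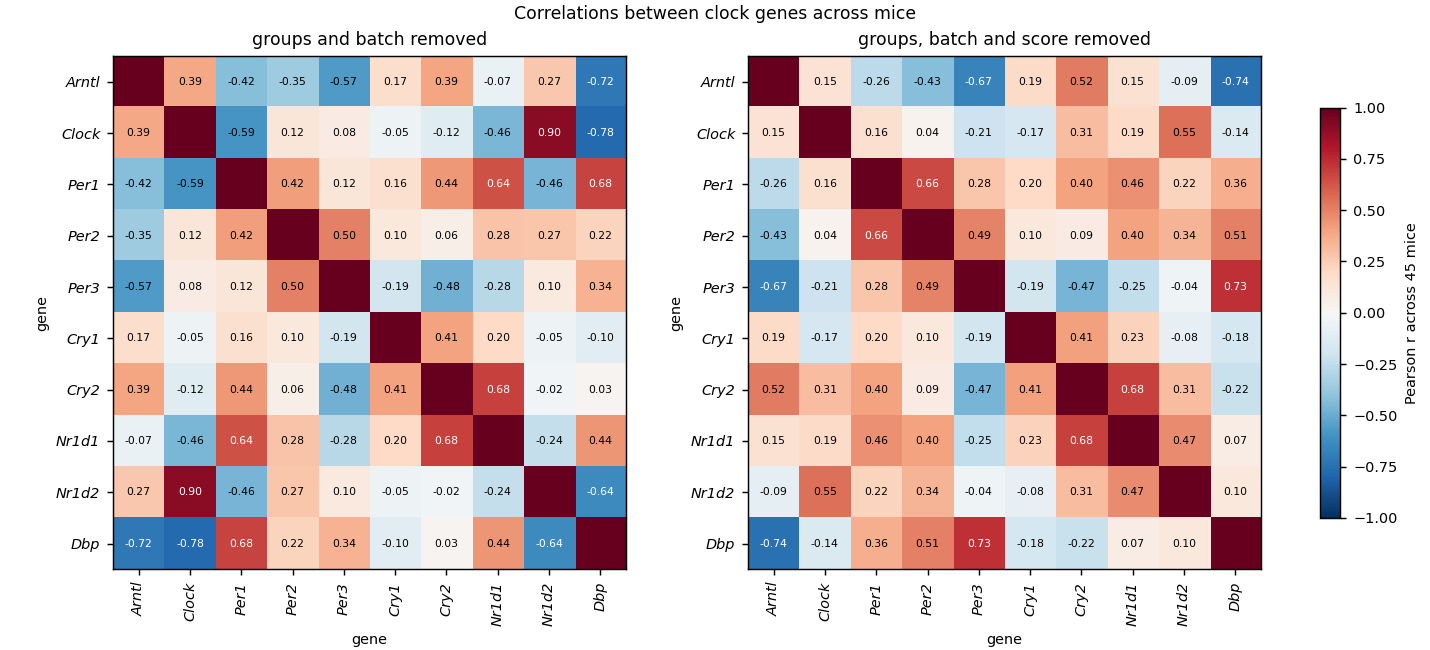
Pearson r of each pair of clock genes over 45 mice, from residuals after group and batch and again with the score of shared variation as a further term, as coloured cells from negative to positive. Arntl and Dbp stay at -0.72 and -0.74, whereas Clock and Dbp go from -0.78 to -0.14.

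Arntl and Dbp, which peak at opposite phases in tissues with a running clock, were negatively correlated. Their r was -0.72 (permutation p = 2.00e-04) and Spearman's rho -0.73 (permutation p = 8.00e-05), and the larger of the adjusted p values was 0.00441. Dbp had the largest absolute correlation with Arntl of all 15896 other genes. From the side of Dbp, Arntl stood at rank 1536, and with the score of shared variation at rank 1. The relation was -0.77 in batch 0 and -0.75 in batch 1, -0.64 without the 2 mice farthest from the median of Arntl, and -0.77 to -0.66 with any mouse left out. It was -0.41 on STD and -0.84 on TWD, and with the score -0.73 and -0.72, a difference that was not tested. With the score over all mice r was -0.74 (permutation p = 2.00e-05, adjusted p = 0.00334).

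Arntl was also negatively correlated with Per3. By absolute correlation Per3 stood at rank 164 among all other genes for Arntl, and Arntl at rank 398 for Per3. Here r was -0.57 (permutation p = 2.00e-05), rho -0.50 (permutation p = 1.80e-04) and the larger adjusted p 0.0201. In batch 0 it was -0.68 and in batch 1 -0.61, and without the 2 farthest mice -0.49. With the score r was -0.67 (permutation p = 1e-05, the smallest the permutations can give), and the larger adjusted p was 0.0115. Arntl was at -0.42 with Per1 and at -0.35 with Per2, and neither pair was called. Arntl and Nr1d1, also named above as opposite in phase, were at -0.07 (permutation p = 0.665). With the score they were at 0.15 (permutation p = 0.244). Nr1d1 and Dbp went from 0.44 (permutation p = 0.0163) to 0.07 (permutation p = 0.659) with the score.

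Per3 and Dbp correlated at 0.34 (permutation p = 0.0182) with rho 0.26 (permutation p = 0.0601), and the pair was not called (larger adjusted p = 0.178), with 0.72 in batch 0 and 0.29 in batch 1. Without the 2 farthest mice r was 0.11. With the score of shared variation r was 0.73 (permutation p = 5.00e-04), rho 0.65 (permutation p = 2.90e-04) and the larger adjusted p 0.00228. This r with the score was 0.78 in batch 0, 0.67 in batch 1 and 0.62 without the 2 farthest mice. Per3 then had rank 2 among all genes for Dbp, next to Arntl. From the other sides, Dbp had rank 70 and Arntl rank 216 for Per3, and Dbp had rank 2 for Arntl. With the score in the fit, mice with higher Dbp thus had higher Per3 and lower Arntl, the 3 genes in which these relations passed.

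**Figure D4:**
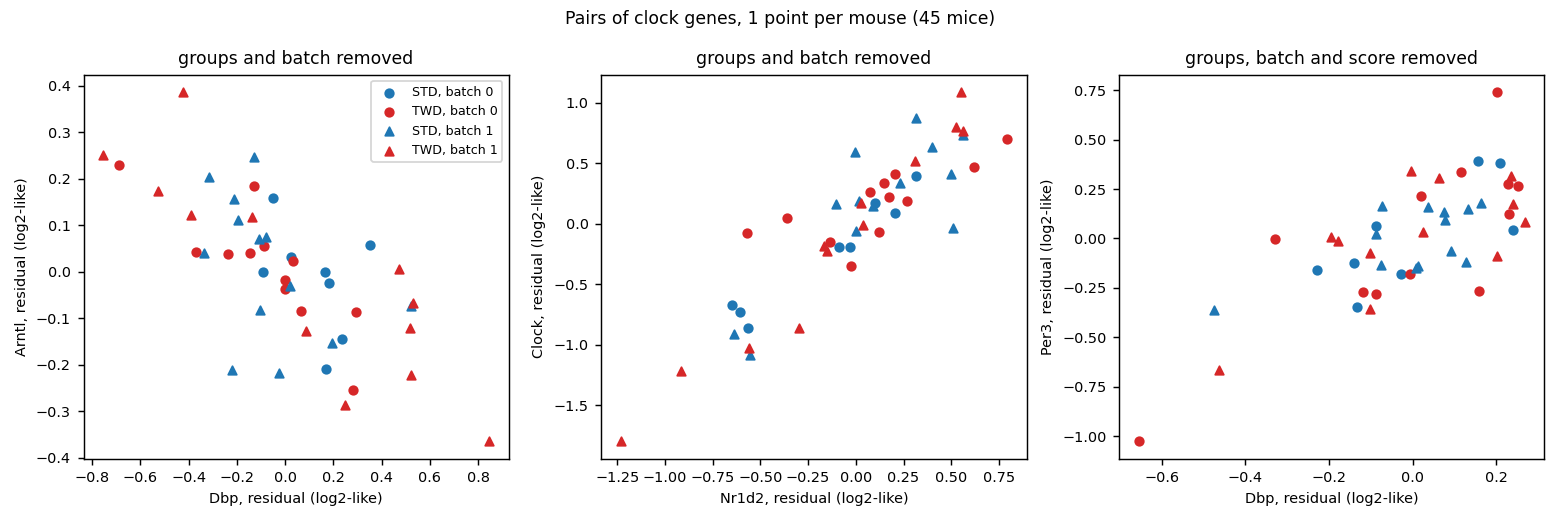
Residuals (log2-like scale on both axes) of Arntl against Dbp and Clock against Nr1d2 after group and batch, and of Per3 against Dbp with the score of shared variation removed as well, 1 point for each of 45 mice (blue STD, red TWD, circles batch 0, triangles batch 1). Arntl is lower where Dbp is higher (r = -0.72), Clock higher where Nr1d2 is (r = 0.90), and Per3 higher where Dbp is (r = 0.73).

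The strongest relation of all was that of Clock and Nr1d2, with r of 0.90 (permutation p = 1e-05, the smallest the permutations can give), rho of 0.88 (permutation p = 2.00e-05) and an adjusted p of 9.55e-13. It was 0.79 in batch 0, 0.93 in batch 1 and 0.85 without the 2 farthest mice. In 9 mice the Clock residual was -0.67 or lower and in the other 36 it was -0.35 or higher, and r was 0.81 among the former and 0.73 among the latter. Both genes followed the score of shared variation, and with it r was 0.55 (permutation p = 0.00571), rho 0.48 (permutation p = 0.0180), and the pair was not called (larger adjusted p = 0.0658). Nr1d2 stood at rank 780 of the 15896 genes by absolute correlation with Clock, and Clock at rank 23 for Nr1d2. Clock and Dbp likewise went from -0.78 (permutation p = 9.00e-05, rho -0.77, -0.21 in batch 0 and -0.89 in batch 1) to -0.14 (permutation p = 0.443) with the score. Nr1d2 and Dbp went from -0.64 to 0.10, Clock and Per1 from -0.59 to 0.16, and Clock and Nr1d1 from -0.46 to 0.19.

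Cry2 and Nr1d1, both repressors, correlated at 0.68 (permutation p = 5.10e-04, rho 0.66, permutation p = 3.30e-04, larger adjusted p = 9.66e-05), at 0.77 in batch 0 and 0.48 in batch 1, and at 0.62 without the 2 farthest mice. With the score r was 0.68 (permutation p = 7.80e-04), but with the second component as well it was 0.10. Per1 and Per2, the light and hormone responsive Per genes, correlated at 0.42 (permutation p = 0.0200) and were not called (larger adjusted p = 0.402). With the score r was 0.66 (permutation p = 0.00126), the larger adjusted p 0.0114, the batches 0.54 and 0.55, and r without the 2 farthest mice 0.54. Per2 and Per3 correlated at 0.50 (permutation p = 0.00540) and at 0.49 with the score (permutation p = 0.00608), and were called neither way (larger adjusted p = 0.236 and 0.0810).

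Per1 and Dbp correlated at 0.68 (permutation p = 9.10e-04), with rho 0.61 (permutation p = 0.00191), and were called (larger adjusted p = 4.57e-05). In batch 0 r was 0.20 and in batch 1 0.75, and without the 2 farthest mice 0.56. With the score it was 0.36 (permutation p = 0.0416) and the pair was not called (larger adjusted p = 0.276). Per3 and Cry2 correlated at -0.48 (permutation p = 0.00283, rho -0.46, permutation p = 0.00309) and were not called (larger adjusted p = 0.0502). With the score r was -0.47 (permutation p = 0.00542) and the pair was called (larger adjusted p = 0.0257), in batch 0 it was -0.54 and in batch 1 -0.70, and with the second component as well it was -0.09. Cry1 was in no called pair, and its r with Dbp was -0.10, with Per3 -0.19 and with Per1 0.16.

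The number of genes that varied with a member sets these pairs against all genes. With Clock as a term 67.4% of the other genes were called, with Nr1d2 62.7%, Dbp 59.5%, Per1 48.4%, Nr1d1 41.3% and Cry2 26.3%. The called members were 5 of 9 for Clock, 3 for Nr1d2, 5 for Dbp, 7 for Per1, 4 for Nr1d1 and 4 for Cry2, shares of 55.6%, 33.3%, 55.6%, 77.8%, 44.4% and 44.4% that lie on both sides of those of all genes. For Arntl they were 2 of 9 (22.2%) while 8.14% of genes were called, and for Per3 2 of 9 with 6.56%. Per2 varied with 3 genes (0.0189%) and Cry1 with 0 (1429 at an unadjusted p under 0.05), and neither had a member among its calls.

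With the score of shared variation the numbers of genes dropped for Dbp to 43 (0.271%), for Clock to 51 (0.321%), for Arntl to 78 (0.491%) and for Nr1d2 to 235 (1.48%). Of the 43 genes that varied with Dbp 2 were members, Arntl and Per3, and of the 78 for Arntl 2 were members, Dbp and Per3. For Cry2 the number rose to 6592 (41.5%) and for Per3 to 2834 (17.8%), and 5 and 4 of 9 members were among them. For Nr1d1 it was 5842 (36.8%) with 4 of 9 members, for Per1 801 (5.04%) with 1 and for Per2 121 (0.761%) with 1, Per1. Cry1 still varied with 0 genes in limma (2778 at an unadjusted p under 0.05). Of the 23 further clock genes 0 were called for Arntl, Clock, Nr1d2 and Dbp with the score, against 5, 16, 14 and 11 without it. For Nr1d1 the count was 11 with and 13 without the score, for Cry2 10 and 7, for Per1 6 and 11, and for Per3 5 and 0, and for Per2 and Cry1 it was 0 both ways.

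The genes whose residuals were most like those of a member, over the 45 mice, differed from member to member, and no gene was among the first 5 of more than 1 of them. They were Dbp (-0.72) and Tsc22d3 (-0.69) for Arntl, Bmpr2 (0.98) and Ttbk2 (0.98) for Clock, Scn1a (0.93) and Zbtb11 (0.92) for Nr1d2, and Echdc1 (-0.90) and Zfp804a (-0.87) for Dbp. For Per1 they were Upf1 (0.85) and Tob2 (0.83), for Per2 Hjurp (0.69) and Pdzd11 (-0.68), and for Per3 Adam1a (0.88) and Miat (0.86). For Cry2 they were Arhgap44 (0.89) and Dusp8 (0.89), for Nr1d1 Ndufb1-ps (-0.89) and Pacsin1 (0.89), and for Cry1 Uhrf1bp1l (-0.57) and Fads6 (0.57). The median absolute r over all genes was 0.126 for Cry1 and 0.140 for Per2, against 0.526 for Clock and 0.432 for Dbp.

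Within groups some members followed the summed markers of cell types, given as r over 45 mice that share their libraries. Per3 was at -0.75 with the astrocyte markers, with which Arntl was at 0.58 and Cry2 at 0.68. Cry2 was at 0.72 with the hippocampal neuron markers and at 0.60 with those of microglia, and Cry1 at 0.53 with those of microglia. Clock was at -0.55 with the oligodendrocyte and at -0.59 with the endothelial markers, and Nr1d2 at -0.61 with the red blood cell markers. The part of cell makeup in the correlations between members was not tested.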

How the data were processed

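Hippocampal poly(A) RNA of 45 mice was sequenced as single reads of 50 bp. The authors used Trimmomatic 0.38 for trimming and Bowtie2 2.2.3 to discard rRNA and mitochondrial reads, quantified transcripts with kallisto 0.44.0, dropped genes with a mean count of 10 or less, applied the variance-stabilizing transformation of DESeq2 1.22.2 and removed batch with limma 3.38.3, so that the deposited values are on a log2-like scale. They hold no counts, and precision comes from the spread between mice only. The authors state a minimum read depth for all samples, but the depth of each library is not given. Batch means were equal for every gene, so batch was kept in each fit. Groups and batch came from the labels.

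Genes were tested with limma 3.58.1 (R 4.3.3, mean trend, two-sided, Benjamini-Hochberg over all genes, threshold 0.05). Transgene effects came from an additive fit of both transgenes, diet and batch, the diet effect from a fit of genotype, diet and batch, and contrasts of groups and interactions from 1 fit of the 8 groups and batch. The score of shared variation weights the centred values of each mouse by the gene loadings of component 1 of the residuals. Correlations used residuals and 100000 permutations within group and batch (seed 20, Python 3.11.15, numpy 2.4.6, scipy 1.17.1, pandas 2.3.3, matplotlib 3.10.9). Folds are powers of the log2-like differences and understate changes of low genes. The scripts were tested on simulated data.

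The members and gene lists were chosen with earlier results of these data known. Named are the members, at most 8 further clock genes by adjusted p among those called for diet, a transgene or the prefix, and, for each member, genes from the 5 most alike. The values of 1 further clock gene that this rule names are not reported here. Ciart and Bhlhe40, called with the score only, the split of mice by their Clock residual and the counts of mice beyond a median were chosen after their values were seen. Positions and transcript properties are from GENCODE M21 (GRCm38), which gave a symbol for 15695 genes, and start windows from RefSeq (GRCm38.p6), which hold 9 of the 10 members. The values of another gene are repeated by 157 genes. The trend over length and GC, the second component and the single counting of repeated genes were added as alternatives after seeing the data.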

Additional observations from a re-analysis of the deposited data

Results flagged for a closer look

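In 11 of 80 combinations of a clock gene and a group, 1 mouse stood apart from the rest of its group by Dixon's criterion, which chance alone meets in about 1 in 20 groups, or 4 here. The lowest mice were those for Clock in A+T+/TWD (7.15, next 8.93), Per1 in AwT+/TWD (9.56, next 10.15), Per3 in A+T+/TWD (7.60, next 8.65), Per3 in A+T+/STD (8.18, next 8.42), Cry2 in A+Tw/TWD (10.36, next 10.79) and Nr1d2 in AwT+/TWD (8.00, next 8.93). The highest were those for Per2 in AwT+/TWD (9.19, next 8.93), Cry1 in AwT+/TWD (8.71, next 7.70), Cry1 in AwTw/TWD (8.77, next 7.51), Nr1d1 in AwTw/STD (11.10, next 10.57) and Nr1d2 in AwT+/STD (9.43, next 9.20). The mouse with the lowest Clock had the highest score of shared variation, and that in AwTw/STD with the highest Nr1d1 was the one without which 3 members were called for diet in AwTw mice.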

How the results depend on the processing

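Per2 passed the test for the APP/PS1 transgene under each alternative of the whole-table test except batch 0 alone. The members called for that transgene numbered 1, but 0 in batch 0 alone, 3 with the score of shared variation, 3 with the trend over transcript length and GC content removed, and 2 with a second component. For diet they numbered 2, but 0 in batch 0, 4 in batch 1, and 0 with the score, with the length and GC trend removed or with 2 components, and 0 to 3 with a mouse left out. For diet in AwTw mice they numbered 0, and 0 to 3 with a mouse left out. Clock changed sign for diet with the score (0.051) and with 2 components (0.060). Called pairs numbered 13, but 6 with the score, 2 in batch 0, 4 on STD alone and 5 with 2 components, and 11 to 15 with a mouse left out. Pairs that changed sign with the score included Clock with Per1 (0.16) and Nr1d1 (0.19), Per1 with Nr1d2 (0.22) and Nr1d2 with Dbp (0.10). Nr1d1 with Nr1d2 went from -0.24 to 0.47 with the score. With 2 components they included Clock with Per1 (0.099) and Nr1d1 (0.095) and Per1 with Nr1d2 (0.10). Per3 with Nr1d1 (0.18) and Nr1d2 with Dbp (0.20) were also among these. In batch 0 they included Per1 with Nr1d2 (0.15) and Arntl with Per1 (0.032). Further pairs changed sign and are not listed. The cause was not tested. Genes that varied with a member went, with the score, from 1294 to 78 for Arntl, 10714 to 51 for Clock, 7695 to 801 for Per1, 3 to 121 for Per2, 1042 to 2834 for Per3, 4185 to 6592 for Cry2, 9968 to 235 for Nr1d2 and 9457 to 43 for Dbp. With a mouse left out they ran from 53 (without A+Tw/TWD replicate 3) to 3689 (without A+Tw/STD replicate 5) for Arntl, from 0 to 13 for Per2 and from 325 (without A+Tw/TWD replicate 3) to 1612 for Per3. Without batch as a term, with quantile normalization, a filter on low values, no mean trend or repeated genes counted once, no count of called members moved by over 1.5 times. No paired analysis was possible because the replicate numbers were given in accession order only and pair no mice. The depth of each library is not given beyond the authors' stated minimum. With 4 to 6 mice per group, differences of a single group as large as 0.40 for Per2 did not pass.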
